A study of Mus musculus with 5 samples.

Results

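Transcript levels of 10 transcription factors that build and maintain the B lineage were examined on 5 arrays labelled as B220+ bone marrow cells: Ebf1, Pax5, Tcf3, Foxo1, Ikzf1, Ikzf3, Spib, Bcl11a, Pou2af1 and Bach2. They were taken by gene symbol from the platform's probe annotation. All 10 were found, as 31 of the 45037 probe sets that are not controls, and all 10 were among the 11392 genes kept for testing. The study set KA/KA mice, which carry a knocked-in kinase-dead IKKα on both alleles (K44A, 3 arrays), against wild-type littermates (WT, 2 arrays). IKKα is a kinase that activates the alternative NF-κB pathway. All mice were 4 weeks old, on the FVB background and untreated, and cells were flushed from tibias and femurs and enriched with magnetic beads against B220, a form of CD45 on B-lineage cells. The labels describe the allele as a knock-in, name no promoter or Cre that would confine it to B cells, and leave unsaid how many animals gave the RNA of each array, so p-values measure the spread between these arrays, which may be technical. Affymetrix mouse arrays gave a linear signal for each probe set, scaled by array to a 2% trimmed mean of 500, and levels below are log2(signal + 16), a scale that understates differences of dim genes.

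B cells arise from lymphoid progenitors through a cascade of transcription factors. E2A proteins, encoded by Tcf3, act with EBF1 and FOXO1 to switch on early B genes, and EBF1 and PAX5 then commit cells to the lineage and keep each other expressed. Ikaros (Ikzf1) and Aiolos (Ikzf3) are zinc finger proteins of most lymphoid cells, Spi-B and BCL11A also serve plasmacytoid dendritic cells, and OBF-1 (Pou2af1) and BACH2 act mainly in later B cells. Several have known roles outside the lineage: FOXO1 in many tissues including endothelium, and EBF1 in stromal and fat cells.

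The labels did not hold for all arrays. The array sets were defined from 24 poly-A control probe sets, whose median was 7.25 on KA/KA 2, 8.05 on KA/KA 3 and 5.97 on WT 2, and 13.54 and 12.84 on KA/KA 1 and WT 1 (border 10). Among 9 lung epithelial genes on the array, 8 were above background on all 3 arrays with low control signal and 6 were at background on both others. Their summed signal was 98150 to 165912 on those 3 arrays, against 493 and 431 on KA/KA 1 and WT 1. Rag1, which cuts DNA in V(D)J recombination and defines B-cell precursors, read 4.09 to 4.10 on those 3 arrays, against 12.80 on KA/KA 1 and 12.79 on WT 1. KA/KA 2, KA/KA 3 and WT 2 are called the lung-like arrays and KA/KA 1 and WT 1 the marrow-like pair. These sets are not groups of the study. Where 5 levels of a gene are listed, they stand in the order KA/KA 2, KA/KA 3 and WT 2 (lung-like), against KA/KA 1 and WT 1 (the pair). A probe set counts as above background on an array where it exceeded the 95th percentile of 83 probe sets for odorant, vomeronasal and taste receptors, which was 6.54 to 6.76 on the lung-like arrays and 6.22 and 6.51 on the pair. RNA of other tissues was present on the lung-like arrays, so fewer B cells and less RNA of a gene per cell cannot be told apart there. The difference in control signal falls on the same sets, so a technical difference between them cannot be told apart either.

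The promoters of the factors were searched for motifs of the factors' own families. RefSeq windows (GRCm38.p6) were given for 9 of the 10 genes, 11 windows in all, and the 250 bases before the start were searched on both strands. The core bound by EBF proteins, CCCNNGGG, occurred in 3 of the 11 windows and in 11.8% of all 32851 windows. The genes of those 3 windows, Spib, Ikzf1 and Foxo1, span the members' whole range of differences between the array sets given below, which is why they are printed here, with matches in capitals.
Spib, chr7:44532072-44532321, minus strand: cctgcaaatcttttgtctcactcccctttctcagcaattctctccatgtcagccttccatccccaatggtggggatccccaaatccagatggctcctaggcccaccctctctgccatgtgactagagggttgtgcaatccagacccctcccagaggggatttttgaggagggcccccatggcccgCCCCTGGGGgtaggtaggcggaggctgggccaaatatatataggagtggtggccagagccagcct
Ikzf1, chr11:11685675-11685924, plus strand: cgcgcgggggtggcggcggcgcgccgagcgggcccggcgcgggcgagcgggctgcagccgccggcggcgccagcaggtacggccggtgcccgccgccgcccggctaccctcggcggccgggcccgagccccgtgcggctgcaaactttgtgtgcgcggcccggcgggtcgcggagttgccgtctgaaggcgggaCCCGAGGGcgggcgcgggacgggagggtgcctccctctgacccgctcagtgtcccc
Foxo1, chr3:52268087-52268336, plus strand: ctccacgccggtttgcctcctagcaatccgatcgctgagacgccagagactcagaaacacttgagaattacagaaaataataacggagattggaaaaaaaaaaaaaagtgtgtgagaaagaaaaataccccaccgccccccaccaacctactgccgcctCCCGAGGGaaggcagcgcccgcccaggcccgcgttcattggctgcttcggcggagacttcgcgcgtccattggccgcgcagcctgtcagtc
The Spib window holds 2 overlapping matches, which start 65 and 64 bases before the start site. In the windows of Ikzf1 and Foxo1 the match starts 56 and 91 bases before it, and a second Ikzf1 window has none. The E-box CANNTG, bound by E2A, lay in 7 of 11 windows against 66.2% of all windows, and the ETS core GGAA in 10 of 11 against 93.4%. The octamer ATTTGCAT (1.60% of all windows) and the forkhead core TGTTTAC (3.17%) were in none of the 11. A match is a description of letters and not a binding site.

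Nearly all of the factors were lower on the lung-like arrays than on the marrow-like pair. Pax5 entered the test through its marrow-like values and is counted apart. In limma's fit of array set and genotype over all genes, 8 of the other 9 factors were lower at an adjusted p under 0.05 and 0 were higher. Among all 11392 genes 14.2% were lower and 21.5% higher, and 12.8% were lower among the 11123 whose lung-like mean alone also reached the filter, as that of these 9 did. Those 8 and Pax5 read lower on all 3 lung-like arrays than on both marrow-like arrays, without overlap, as 30.5% of all genes did, and 0 factors lay above without overlap (35.4% of all genes). The median fitted difference of the 10 factors was -3.31 log2 units, with a range from -4.82 to -0.77, against 0.044 over all genes. Without Pax5 it was -3.45, against 0.074 over the 11123 genes. Fewer factors passed with single arrays left out: 6 of 10 without WT 2, 6 without WT 1 and 7 without KA/KA 1, where 5.24%, 3.89% and 5.35% of all genes were called lower. Pax5 did not pass in any of those 3 settings (adjusted p = 0.0725, 0.0828 and 0.165), Ikzf1 (0.0588 and 0.0707) and Ikzf3 (0.121 and 0.140) did not without WT 2 or WT 1, and Bach2 did not without KA/KA 1 (0.0671). Centring each array on its median moved the median of all genes to -0.31 and the split of calls to 2799 lower and 1946 higher, against 1617 lower and 2447 higher without centring, and the same 8 factors and Pax5 passed downward under it too.

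**Figure D1:**
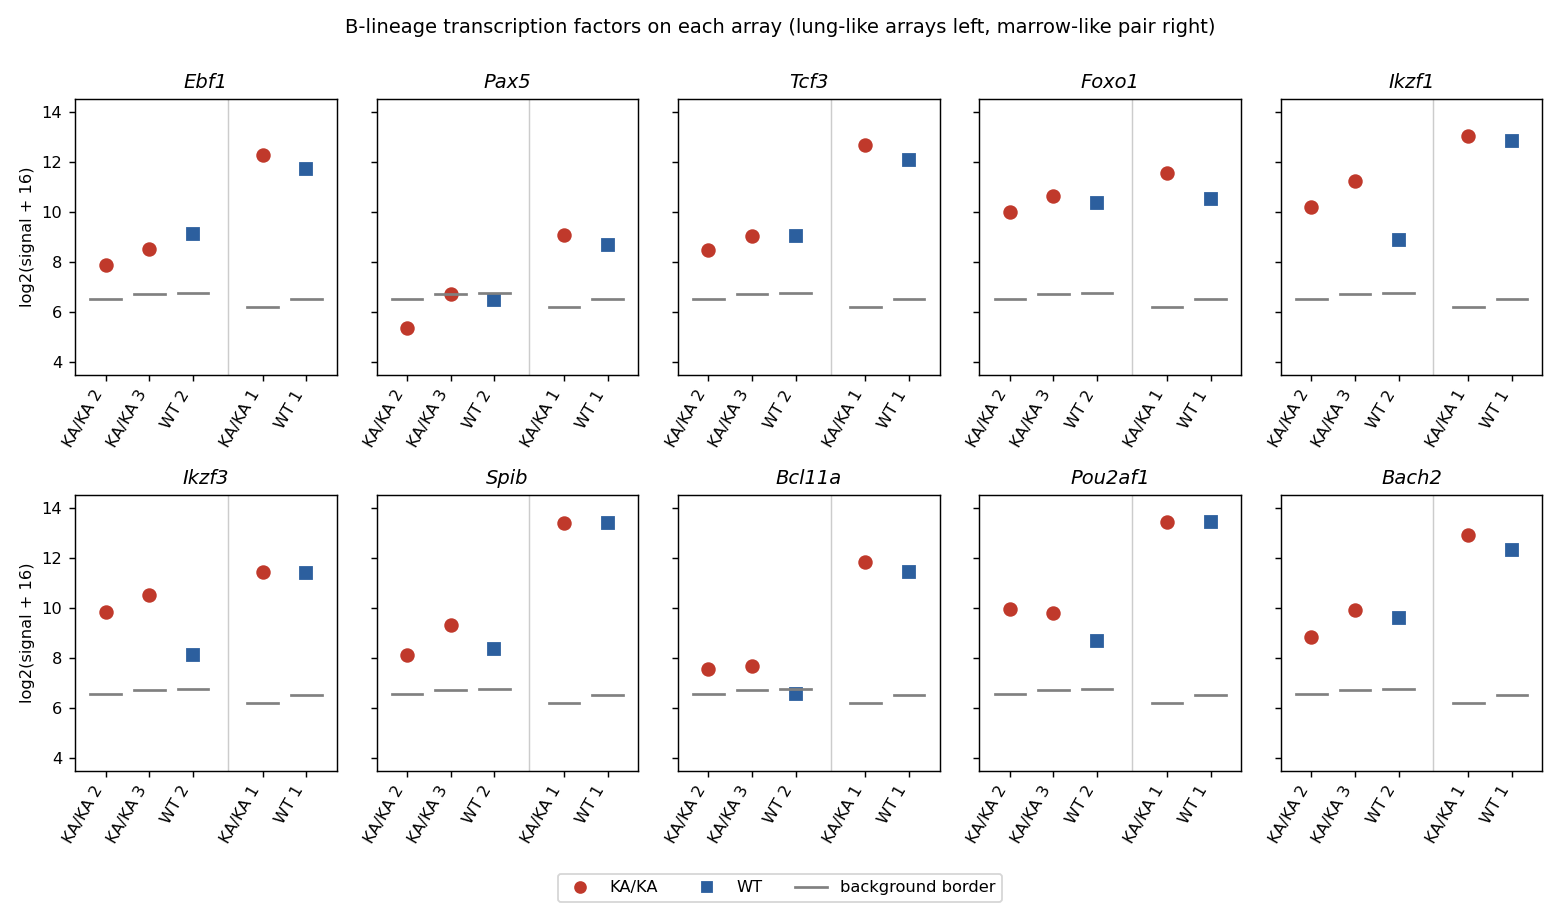
Level of each factor's representative probe set, log2(signal + 16), on the 3 lung-like arrays (left of each panel) and the marrow-like pair (right); red circles are KA/KA and blue squares WT, and grey bars mark each array's background border. Except for Foxo1, all lung-like values lie below both marrow-like values. Of the lung-like arrays, Pax5 exceeds the border on KA/KA 3 alone, and Bcl11a lies below it on WT 2.

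Tcf3, Ebf1 and Foxo1 open the B-cell programme. Tcf3 read 8.48, 9.05 and 9.05 on the lung-like arrays, against 12.67 on KA/KA 1 and 12.06 on WT 1. The fitted difference was -3.52 ± 0.33 log2 units (lung-like minus marrow-like, SE, n = 3 and 2, limma adjusted p = 0.00112), and the sets were far apart. Its other probe sets differed more: 1 of them differed by -5.04 in the means of the sets, and the dimmest was at 4.23, 5.61 and 4.36 on the lung-like arrays, below the background border on each, against 10.03 and 8.79. The probe sets of Tcf3 therefore gave unlike answers for the lung-like arrays, with 1 of 3 above background on all of them.

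Ebf1 read 7.88, 8.51 and 9.12 on the lung-like arrays (WT 2 highest), against 12.28 on KA/KA 1 and 11.71 on WT 1, a difference of -3.45 ± 0.42 (adjusted p = 0.00244). Of its 5 probe sets, 4 were above background on every array and all 4 were lower on the lung-like arrays, with differences of -4.09 to -2.54 in the means of the sets. The last was near 5.7 or 5.8 on every array, below background throughout. Fibroblast and pericyte genes, of cells that may express Ebf1, passed upward on the lung-like arrays for 6 of 7 tested (median 3.39). Of all genes, 21.5% passed upward. Among the 6, Cspg4 read 6.66 on KA/KA 1 and 6.20 on WT 1, below the filter, and so entered the test through the lung-like arrays. The part of fibroblasts and pericytes in the remaining Ebf1 signal was not tested.

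Foxo1 differed least. It read 9.99, 10.65 and 10.38 on the lung-like arrays, against 11.57 on KA/KA 1 and 10.51 on WT 1, so WT 1 lay inside the range of the lung-like arrays. Its difference of -0.77 ± 0.37 did not pass (limma adjusted p = 0.152), and ran from -1.25 to -0.13 with single arrays left out. The 3 detected probe sets gave close values, -0.88 to -0.70 in the means of the sets. Endothelial genes, of a cell type known to use FOXO1, passed upward on the lung-like arrays for 9 of 10 (median 3.79), and 10 of 10 were above background on all 5 arrays. Of all genes, 21.5% passed upward. Among the 9, Tek read 7.13 on KA/KA 1 and 6.65 on WT 1. Its mean on the pair was below the filter, so it entered the test through the lung-like arrays. The part of endothelial cells in the Foxo1 signal was not tested.

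Pax5, which holds cells in the B lineage, was the factor that came closest to background. It read 5.37, 6.74 and 6.49 on the lung-like arrays, which are signals of 25.3, 90.7 and 74.0, against 9.07 and 8.67 on the pair (signals of 522 on KA/KA 1 and 390 on WT 1). Only KA/KA 3 exceeded the border, by a small margin (6.74 against 6.71). The difference of -2.66 ± 0.53 (adjusted p = 0.0127) is limited by background at its lower end. Pax5 entered the test through its marrow-like values: its mean over the arrays was just above the filter of 7.04, and its second probe set, at 4.96, 5.45 and 6.28 against 7.64 and 7.51, fell below it.

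Ikzf1 and Ikzf3, the Ikaros family members of lymphoid cells, stayed clearly above background in all arrays. Ikzf1 read 10.20, 11.22 and 8.90 on the lung-like arrays, against 13.02 on KA/KA 1 and 12.82 on WT 1 (difference -3.00 ± 0.48, adjusted p = 0.00606). Ikzf3 read 9.85, 10.53 and 8.11, against 11.42 and 11.41 in the same order (difference -2.11 ± 0.51, adjusted p = 0.0238). For both, WT 2 was the lowest array. The dimmest probe set of each was below the border on all lung-like arrays and above it on the pair.

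Spib and Bcl11a, which B cells share with plasmacytoid dendritic cells, had the widest gaps of the 10 by representative probe set. With the mean of each gene's probe sets Spib still led (-4.82), but Tcf3 (-4.49) and Pou2af1 (-4.07) came before Bcl11a (-3.32). Spib, an Ets factor, read 8.10, 9.33 and 8.35 on the lung-like arrays, against 13.39 on KA/KA 1 and 13.37 on WT 1, or signals of 258 to 627 against 10739 and 10551. Its difference was -4.82 ± 0.41 (adjusted p = 0.000912). Bcl11a, a zinc finger factor needed for B-cell formation in mice, read 7.56, 7.69 and 6.56, against 11.82 and 11.44 (difference -4.49 ± 0.30, adjusted p = 0.000624). WT 2 was at background for this probe set, while another Bcl11a probe set read 7.51, 7.81 and 6.84 and so just exceeded the border on all lung-like arrays. All 6 Bcl11a probe sets detected on the pair were lower on every lung-like array, and the last of the 7 was below background throughout. Of the 7, 4 were at background on every lung-like array, which limits their differences. Of 8 genes of plasmacytoid dendritic cells, 4 were above background on all lung-like arrays, and 3 of these passed downward. The other 4 passed downward too, but their differences are limited by background, as is the median of all 8 (-3.69). Of these 4, Siglech, Bst2 and Klk1 entered the test through the pair. Siglech, their defining surface receptor, read 6.85, 4.88 and 6.87 against 10.30 and 11.12. How much of the Spib and Bcl11a signal on the pair came from plasmacytoid dendritic cells was not tested.

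Pou2af1, the coactivator that octamer-binding factors use at immunoglobulin genes, read 9.94, 9.80 and 8.66 on the lung-like arrays, against 13.43 on KA/KA 1 and 13.42 on WT 1. The difference was -4.07 ± 0.33 (adjusted p = 0.000862), and the lowest lung-like array, WT 2, was still above background. The plasma cell gene Jchain read 13.51, 12.32 and 10.18 against 12.28 and 13.81, and did not pass. Of 5 plasma cell genes tested, Irf4, a factor also of B cells, passed downward (-3.31 ± 0.27) and Prdm1, the plasma cell repressor BLIMP1, passed upward (1.48 ± 0.35). Sdc1 (1.42 ± 0.62) and Xbp1 (0.44 ± 0.34) did not pass, and Tnfrsf17 was at background on all 5 arrays. Bach2, a repressor that delays plasma cell formation, read 8.84, 9.93 and 9.61, against 12.89 and 12.32 (difference -3.16 ± 0.40, adjusted p = 0.00281), and 2 of its 3 probe sets were above background on every array.

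In all, 8 of the 10 factors were above background on all lung-like arrays by their representative probe set, and all 10 on both marrow-like arrays. The exceptions were Pax5, above it on 1 lung-like array, and Bcl11a, on 2. Over all 31 probe sets, 28 were above background on both marrow-like arrays, against 23724 of all 45037 that are not controls. On all lung-like arrays 16 of the 31 were above it. The share of all tested genes above the border, and of all probe sets on the lung-like arrays, was not counted. Whether 8 of 10 or 16 of 31 is more or less than usual is therefore not known. Of those 28, 25 were lower on every lung-like array than on both marrow-like arrays, and the other 3 were probe sets of Foxo1. Of all 23724 probe sets above background on both marrow-like arrays, 37.8% were lower in this way. The remaining 3 probe sets, of Ebf1, Foxo1 and Bcl11a, were not above background on both arrays of the pair or on any lung-like array.

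**Figure D2:**
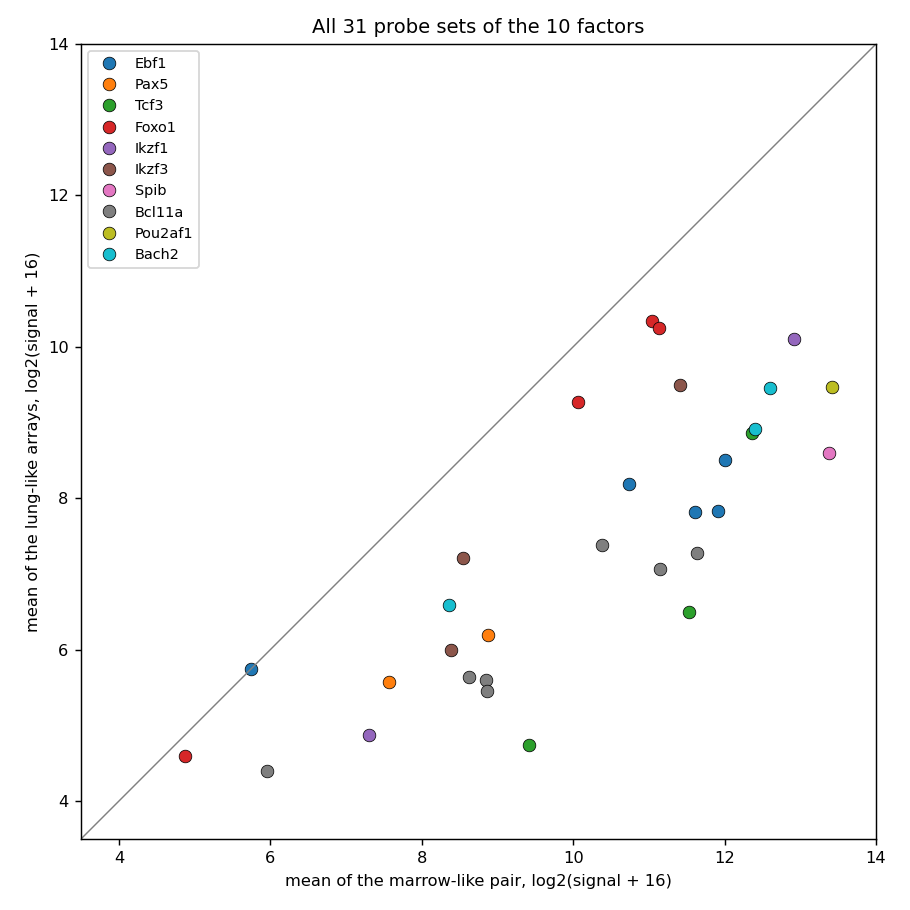
Mean level of each of the 31 probe sets on the 3 lung-like arrays (vertical axis) against the mean of the marrow-like pair (horizontal axis), both log2(signal + 16), coloured by gene; the line marks equal values. The 3 detected Foxo1 probe sets differ by -0.88 to -0.70 log2 units and are the nearest to the line of the 28 detected, and those of the other factors differ by -5.04 to -1.33.

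Most known targets of these factors were lower on the lung-like arrays as well. Of 9 pan-B targets tested, 6 were above background on all lung-like arrays, and all 6 passed downward. The other 3, Cd79a, Blk and Cr2, were above it on some of these arrays and passed downward too, with differences limited by background. Cr2 entered the test through the pair. The median of the 9 was -3.93. Fcrla, an Fc receptor-like protein of B cells, read 7.31, 8.35 and 7.28 against 13.20 and 13.52 (difference -5.74 ± 0.41). Cd79a and Cd79b, the signalling chains of the B-cell receptor, differed by -3.98 ± 0.62 and -3.97 ± 0.58. Cd79b read 9.44, 11.10 and 9.39 against 13.63 and 14.17, so transcripts of B cells were above background on the lung-like arrays. Among early B targets, 5 of 9 tested were above background on all lung-like arrays, and 3 of these passed downward: Vpreb3, which assists assembly of the receptor (-4.89 ± 0.46), Sox4 (-1.66 ± 0.27) and Bst1 (-1.57 ± 0.30). The other 4 were at background on every lung-like array and reached the test through the pair, so only bounds are given, against the higher of the border and the measured level on each array. Vpreb1 and Igll1, of the surrogate light chain, were at least 84.2-fold and 68.9-fold lower, Rag1 at least 69.6-fold and Dntt, which adds bases at V(D)J joints, at least 45.8-fold. Rag1 also served above to describe the array sets. Il7r (-1.34 ± 0.58) and Lef1 (-1.61 ± 0.59) did not pass. Of the 10 early B genes on the array, 5 were at background on all lung-like arrays, while 0 of the 9 pan-B genes were.

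Relatives of the factors, encoded by other genes of the same families or partner families, split in both directions. Of 12 tested, 4 passed downward and 4 upward (median -0.54). Among these, Spic was above background on only 1 lung-like array and entered the test through the pair. Bcl11b entered it through the lung-like arrays, as its levels on the pair were below the filter of 7.04. Lower on the lung-like arrays were Spic, an Ets factor of red pulp macrophages (5.90, 8.54 and 5.13 against 11.22 and 11.01, difference -4.80 ± 0.86), Tcf12, an E protein like E2A (-1.53 ± 0.26), Pou2f2, the octamer-binding partner of OBF-1 (-1.47 ± 0.43), and Spi1, which encodes PU.1 (-1.22 ± 0.36). Higher were Bcl11b, the T-cell counterpart of Bcl11a (10.04, 10.12 and 7.57 against 6.28 and 6.93, difference 2.45 ± 0.71), Foxo3 (1.59 ± 0.25), Ikzf2, which encodes Helios (1.11 ± 0.33), and Bach1 (0.98 ± 0.25). Within families, Bach2 and Bach1, and Ikzf1 and Ikzf2, each passed in opposite directions. So did Bcl11a and Bcl11b, with the limit for Bcl11b given above. Of the relatives, Bcl11b, Pou2f2, Ikzf2 and Spi1 passed only narrowly (limma adjusted p = 0.0422, 0.0434, 0.0441 and 0.0456). Whether their calls hold under other processing is not given here. Tcf4, another E protein, differed by -0.17 ± 0.28 and did not pass.

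**Figure D3:**
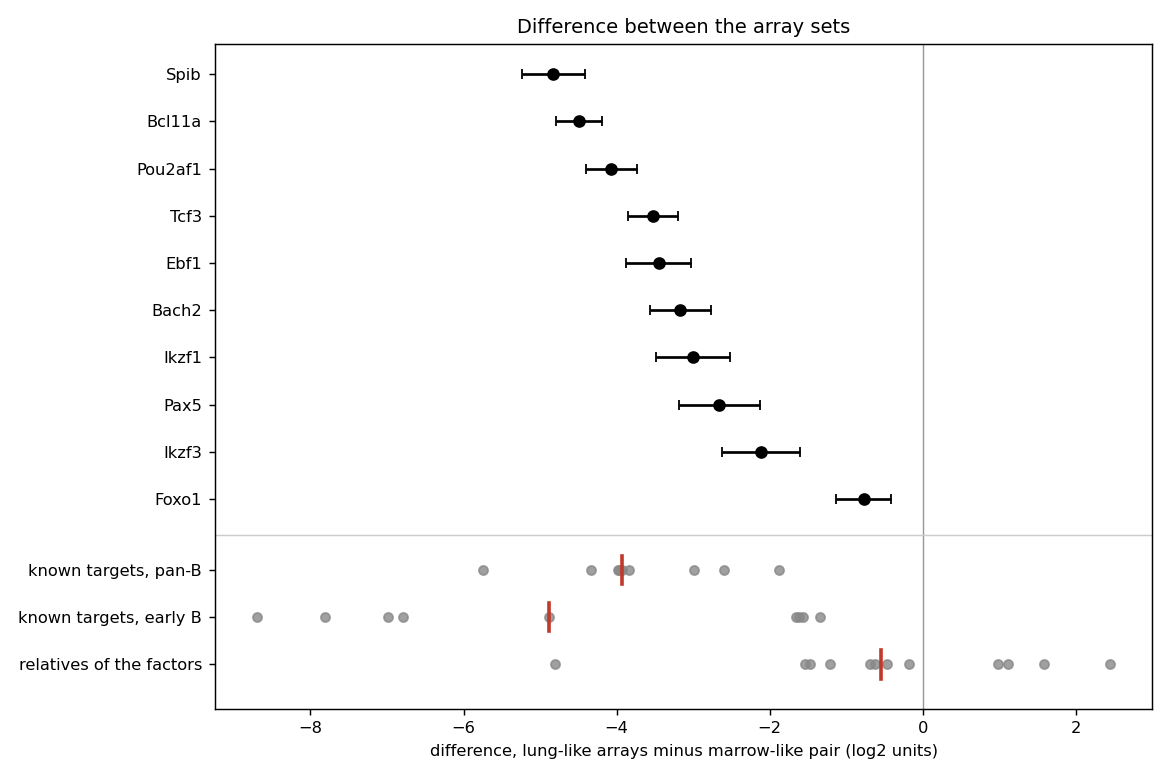
Fitted difference between array sets in log2 units (lung-like minus marrow-like; bars are SE, n = 3 and 2) for the 10 factors, with the tested genes of 3 lists below as grey points and each list's median in red. The 4 early B genes at the far left were at background on all lung-like arrays, so their plotted differences are not exact. Spic and 3 pan-B genes were not above background on all lung-like arrays, so theirs are limited by background too. The factors run from -4.82 for Spib to -0.77 for Foxo1, and the relatives lie on both sides of 0.

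Other genes came close to the factors in their pattern over the 5 arrays. Likeness was measured as the root mean square difference of profiles after each gene's own mean was taken away. The nearest tested gene was Kif20b for Pou2af1 (0.067 log2 units), Camk1d for Foxo1 (0.0901), Ccna2 for Bcl11a (0.0973), E2f2 for Tcf3 (0.0978), Brip1 for Pax5 (0.113), Nek2 for Bach2 (0.130), Pde2a for Ikzf3 (0.140), Rcc1 for Ebf1 (0.168), Hcls1 for Ikzf1 (0.246) and Dnajc7 for Spib (0.275). No member was the nearest gene of another. The 5 arrays share the division into sets, which sets most of each profile.

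KA/KA and WT were then compared inside the sets. With the array set in the fit, 0 of 10 factors and 0% of all genes passed upward, and 0 of 10 and 0% downward (limma, smallest adjusted p 0.999 over all genes; 311 genes at an unadjusted p under 0.05, of the factors Bcl11a alone). The median fitted difference of the factors was 0.32 log2 units (KA/KA minus WT), against 0.018 over all genes, and turned to -0.20 without the array set in the fit. It was 0.15 without KA/KA 1 or without WT 1, 0.18 without KA/KA 3 and 0.54 without KA/KA 2. Without KA/KA 1 or WT 1 the genotype difference comes from the lung-like arrays alone, so that value repeats the difference inside that set. The fitted differences were largest for Ikzf3 (1.19 ± 0.51), Ikzf1 (1.12 ± 0.48), Bcl11a (0.77 ± 0.30) and Pou2af1 (0.69 ± 0.33), with an adjusted p of 0.999 for each. Without WT 2 the fitted differences were 0.012 for Ikzf3, 0.20 for Ikzf1, 0.38 for Bcl11a and 0.006 for Pou2af1. No lung-like WT array is then left, so these values repeat KA/KA 1 minus WT 1 and are no separate check. They were smaller than 0.5 for Foxo1 (0.42 ± 0.37), Spib (0.22 ± 0.41), Bach2 (0.12 ± 0.40), Tcf3 (0.10 ± 0.33), Pax5 (-0.078 ± 0.53) and Ebf1 (-0.28 ± 0.42). With the mean of each gene's probe sets the differences were 0.42 for Ikzf3, 0.51 for Ikzf1 and 0.49 for Bcl11a.

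In the marrow-like pair, all 10 early B genes on the array were above background. By representative probe set, all 10 factors read higher on KA/KA 1 than on WT 1, but by margins as small as 0.006. These directions were the same after quantile normalisation or median centring. With 1 array of each genotype the pair has no replicate check. The median difference was 0.40 log2 units, against 0.080 over all genes, of which 56.8% read higher on KA/KA 1. With the mean of each gene's probe sets the factors' median was 0.19, over the 9 factors then tested. The difference reached 1 log2 unit for 1 factor, Foxo1 (11.57 on KA/KA 1 and 10.51 on WT 1), as for 2.83% of all genes, and for 0 factors downward (1.58% of all genes). Tcf3 differed by 0.61, Ebf1 by 0.57, Bach2 by 0.56, Pax5 by 0.41 and Bcl11a by 0.38. Ikzf1 (0.20), Spib (0.025), Ikzf3 (0.012) and Pou2af1 (0.006) read nearly the same on both arrays.

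Probe sets of 1 gene share their RNA, so their agreement tests the measurement and not the mice. All detected probe sets of Ebf1 (4, from 0.57 to 0.89), Foxo1 (3, from 0.73 to 1.06), Tcf3 (3, from 0.43 to 1.24) and Pax5 (2, 0.13 and 0.41) were higher on KA/KA 1. For Bcl11a 5 of 6 and for Bach2 2 of 3 were. Those of Ikzf1 disagreed (0.20 and -0.71), and of Ikzf3 1 of 3 was higher. For the known targets the median difference in the pair was -0.33 (pan-B) and -0.020 (early B), with Cd79b at 13.63 on KA/KA 1 and 14.17 on WT 1. For genes of other cells the medians there were -0.64 for plasmacytoid dendritic cell genes, -0.15 for T cell genes and 0.36 for macrophage genes, and their part in the factors' values was not tested.

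On the lung-like arrays the factors divided. Ikzf1, Ikzf3, Bcl11a and Pou2af1 were higher on both KA/KA 2 and KA/KA 3 than on WT 2, which is 4 of 10 factors against 33.4% of all genes, and Ebf1 was lower on both, 1 of 10 against 37.4%. These 5 directions were the same after quantile normalisation and median centring. The shares are near those of all genes, and with a single WT array no test was made on this set alone. Ikzf3 was 1.73 and 2.41 log2 units above WT 2, Ikzf1 1.30 and 2.32, Pou2af1 1.27 and 1.13, and Bcl11a 0.99 and 1.13, with WT 2 at background for Bcl11a. Other probe sets of Ikzf3 and Ikzf1 differed less. The Ikzf3 probe set that was also above background on every array was 0.26 and 0.15 above WT 2. The dimmest probe sets, below the border on all lung-like arrays, were 0.11 and 0.44 (Ikzf3) and 0.45 and 0.24 (Ikzf1) above it. Ebf1 was 1.24 lower on KA/KA 2 and 0.61 lower on KA/KA 3, a direction that its 4 detected probe sets shared. For Pax5, Tcf3, Foxo1, Spib and Bach2 the KA/KA arrays lay on either side of WT 2. The median over the factors was -0.32 for KA/KA 2 and 0.65 for KA/KA 3, so these 2 arrays of 1 genotype differed from each other by more than the median effect of 0.15.

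**Figure D4:**
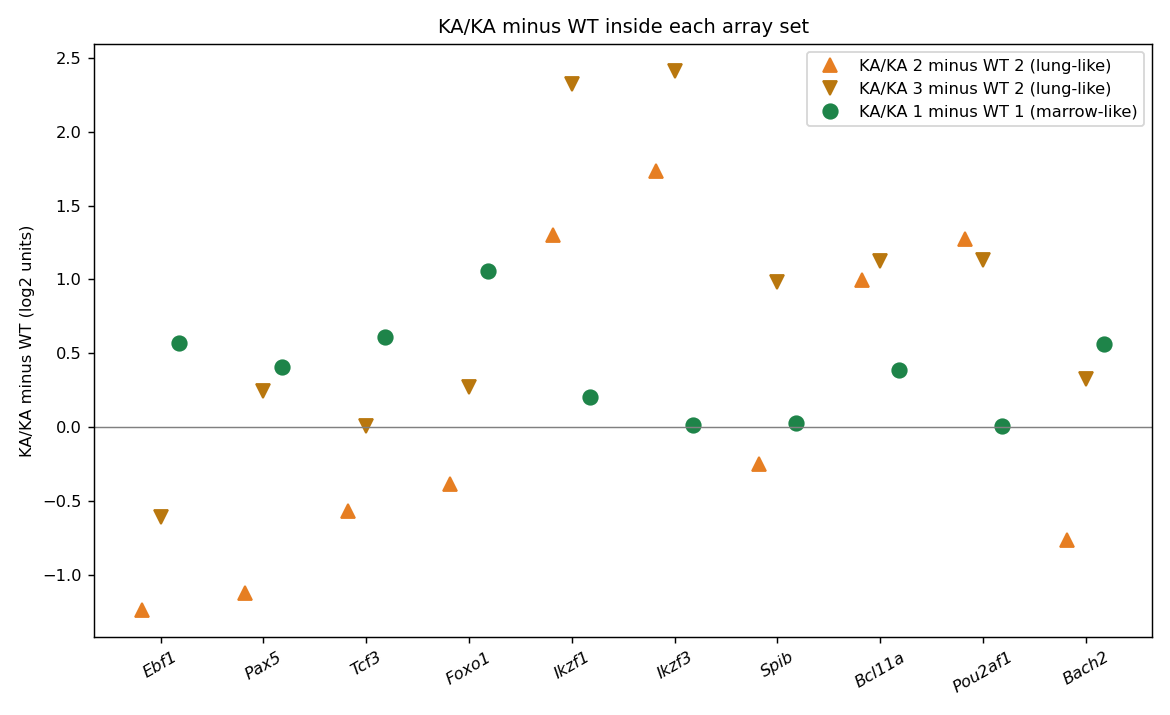
Difference between KA/KA and WT in log2 units for each factor, as KA/KA 2 minus WT 2 and KA/KA 3 minus WT 2 on the lung-like arrays (triangles) and KA/KA 1 minus WT 1 in the marrow-like pair (circles); each point compares 2 arrays and has no error. Values are those of representative probe sets. All circles lie above 0, and both triangles do so for Ikzf1, Ikzf3, Bcl11a and Pou2af1.

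Markers of other cells also differed between KA/KA and WT on the lung-like arrays. T cell genes, of cells that also use Ikzf1 and Ikzf3, had a summed signal of 4484 and 10633 on KA/KA 2 and KA/KA 3, against 2196 on WT 2, and their medians were 1.01 and 2.11 log2 units above WT 2. Of the 9 on the array, 8 were above background on all lung-like arrays, among them Cd3e (8.12 and 9.38 against 7.18) and Cd5 (8.89 and 10.46 against 7.21), while Cd4 was at background on each. Bcl11b, a factor of T cells, read 10.04 and 10.12 against 7.57. In the marrow-like pair the T cell sum was 1912 on KA/KA 1 and 3738 on WT 1. Cd3d alone gave 741 and 2491 of these. Without Cd3d the sum was 1171 on KA/KA 1 and 1247 on WT 1. On the lung-like arrays it was then 3419 on KA/KA 2 and 6884 on KA/KA 3, against 1827 on WT 2. Pan-B genes had a median of 0.0001 (KA/KA 2) and 1.34 (KA/KA 3) above WT 2, and macrophage genes of 2.31 and 1.73. Plasma cell genes, of cells that express Pou2af1, had medians of 1.15 and 0.26. Endothelial genes, with medians of -2.33 and -0.30, were lower most clearly on KA/KA 2, and fibroblast and pericyte genes had medians of 0.68 and -0.63. Fat cell genes, 3 of the 5 listed on the array, differed by 0.31 and 0.071 in the median. Fabp4 (12.74 and 12.41 against 12.34) and Pparg (8.57 and 8.89 against 8.26) were higher on KA/KA 2 and KA/KA 3 than on WT 2. Adipoq, the fat cell hormone adiponectin, went the other way, at 5.68 and 7.29 against 9.96. It was lowest on KA/KA 2, and there below the background border of 6.54. The part of each cell type in the factors' values was not tested.

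**Figure D5:**
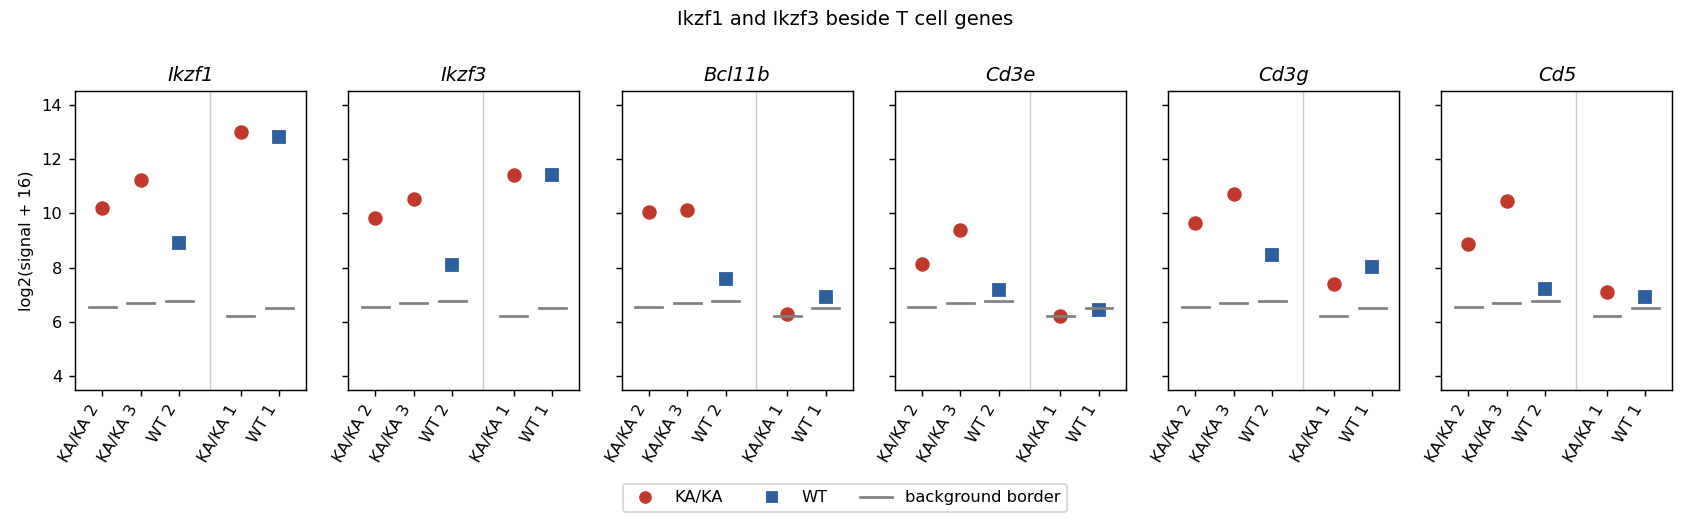
Level, log2(signal + 16), of Ikzf1 and Ikzf3 beside the T cell factor Bcl11b and the T cell genes Cd3e, Cd3g and Cd5 on the lung-like arrays (left of each panel) and the marrow-like pair (right); red circles are KA/KA, blue squares WT and grey bars each array's background border. All 6 genes are lower on WT 2 than on KA/KA 2 and KA/KA 3, and Ikzf1 and Ikzf3 alone of them are higher on the pair than on every lung-like array. Cd3d, not shown, read 9.56 and 11.29 on the pair, inside its lung-like range of 8.59 to 11.88.

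Whether the genotype difference itself differed between the sets was tested with an interaction term, chosen after seeing the data. WT 2, KA/KA 1 and WT 1 each stand alone in that fit, so its 1 residual degree of freedom per gene comes from KA/KA 2 against KA/KA 3 and a failure to pass says little. No factor passed: 0 of 10 and 0% of all genes (limma, smallest adjusted p = 0.754), with 658 genes and 1 of the factors, Ikzf3, at an unadjusted p under 0.05. By representative probe set the interaction was 2.06 ± 0.63 for Ikzf3 and 1.61 ± 0.80 for Ikzf1, meaning a larger KA/KA excess on the lung-like arrays. It was -1.12 ± 0.62 for Foxo1 (adjusted p = 0.756).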

How the data were processed

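The authors deposited 1 table of linear intensities for 45101 probe sets on 5 arrays. Per the submitters' processing notes, which give no version, MAS5 was used, and 150 ng of RNA was labelled per the labels' protocols. The series text mentions a log2 transformation, but the deposited intensities reach 21977 to 40821 and have a trimmed mean of 500 on each array. They were therefore taken as linear, and log2(signal + 16) was computed without further scaling. Array medians on that log2 scale were 6.80 to 7.17. Detection calls were not used here, and the number of arrays limits the precision.

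Of the probe sets, 34945 had 1 gene symbol in the platform annotation, 932 had several and stayed unnamed, and 64 controls were left out. Probe sets at or above the median mean level (7.04) were kept, and each gene was represented by its brightest kept probe set. limma 3.58.1 in R 4.3.3 fitted array set and genotype (eBayes with trend, two-sided, Benjamini-Hochberg over 11392 genes, threshold 0.05), and was tested on simulated data. Differences inside a set are values without a test. The members, the 11 lists and the rules for named genes (all members; of other lists at most 6, by size of the set difference) were chosen with earlier results of these data known. So was the array-set term. T cell genes and Adipoq, Bst1, Il7r, Lef1, Cd79a, Cd79b, Ikzf2, Bach1, Tcf4 and Siglech were chosen after their values were seen.

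Alternatives were quantile normalisation, median centring, pseudocounts of 1 and 64, no filter, the mean of probe sets, leaving out probe sets shared between transcripts, eBayes without trend, no array set, the replicate number as a block, and each array left out.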

Additional observations from a re-analysis of the deposited data

Results flagged for a closer look

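Ebf1 differed between KA/KA and WT in opposite directions in the array sets. It read 7.88 and 8.51 on KA/KA 2 and KA/KA 3, against 9.12 on WT 2, and 12.28 on KA/KA 1, against 11.71 on WT 1. The interaction term, the lung-like minus the marrow-like difference, was -1.49 ± 0.62 log2 units and did not pass (limma, adjusted p = 0.754, over all genes), with 1 residual degree of freedom per gene, and the pair rests on 1 array of each genotype.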

How the results depend on the processing

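Differences of the 10 factors between array sets kept their negative sign under every alternative run. The count of factors past the threshold was 8 or 9 under all alternatives that kept 5 arrays (8 of 9 with the mean of probe sets, where Pax5 fell below the filter) and 6 to 9 with 1 array left out. Their median was -2.83 with the mean of probe sets. Genes called between the sets numbered 1492 to 4389 with 1 array left out (1624 without WT 2, 1915 without KA/KA 1 and 1492 without WT 1), against 1617 lower and 2447 higher with all 5. The genotype fit called 0 genes except 1 with the replicate block, 6 without KA/KA 2 and 1 without KA/KA 3 (leave-one-out range 0 to 6), and 0 of the factors in any setting. Without the array set in the fit the median genotype difference of the factors was -0.20, and with the replicate block 0.18 (0.15 to 0.54 with 1 array left out). Replicate number 3 occurs on KA/KA 3 alone, so the block fits that array exactly and gives the same differences as leaving it out. On the lung-like arrays the factors' median difference was 0.65 without KA/KA 2 and -0.32 without KA/KA 3.

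Of the uncalled genotype differences, these changed sign. Without the array set: Tcf3 (-0.49), Spib (-0.58) and Bach2 (-0.41). With the replicate block: Spib (-0.11) and Bach2 (-0.10). With a pseudocount of 64: Pax5 (0.025). With 1 array left out the ranges were -0.92 to 0.57 for Ebf1, -0.44 to 0.41 for Pax5, -0.28 to 0.61 for Tcf3, -0.059 to 1.06 for Foxo1, -0.11 to 0.50 for Spib and -0.22 to 0.56 for Bach2. Those that kept their sign ran from 0.012 to 2.07 for Ikzf3, 0.20 to 1.81 for Ikzf1, 0.006 to 1.20 for Pou2af1 and 0.38 to 1.06 for Bcl11a. Causes were not tested. The fits with 4 arrays leave 1 residual degree of freedom per gene, and a lone array is assumed to vary like the others. Without WT 2, KA/KA 1 or WT 1 the genotype difference comes from 1 array set alone. The values of those fits in the ranges therefore repeat the differences inside the sets.

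Replicate numbers 1 and 2 occur in both genotypes. Same-numbered arrays deviated together (r = 0.877 and 0.653 across genes, which are not independent), and number 1 is the marrow-like pair, so this check cannot be told apart from the array sets. Signals near background, as for Pax5 and Bcl11a on lung-like arrays, limit how large a difference can appear.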
